A study of Homo sapiens with 12 samples.

Results

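Wild-type HepaRG cells (WT) and HepaRG cells labelled hCAR-KO (KO) were compared after exposure to the vehicle, dimethyl sulfoxide (DMSO). HepaRG is a human hepatoma line that is used as a model of hepatocytes. The whole series holds 12 libraries, 2 for each genotype with DMSO, phenobarbital (PB) or CITCO, and 4 of them are compared here: KO with DMSO 1 and 2 against WT with DMSO 1 and 2. Every locus with at least 1 CPM in at least 2 of the 12 columns was included, which kept 15792 of 15822 loci. KCNE1 was the locus nearest to this threshold from inside, with 1.008 CPM as the second highest of its columns, and the nearest outside had 0.9974 CPM. The labels give no dose, exposure time, edited position or number of knockout clones, so the genotype and a property of 1 clone cannot be told apart. They do not say that duplicates came from separate cultures, so the p-values measure the spread between libraries, which may be technical.

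The constitutive androstane receptor (CAR, gene NR1I3) is a nuclear receptor of hepatocytes that binds DNA together with RXRA. It is known for switching on genes that clear drugs and bilirubin, with CYP2B6 as its classical target and CYP3A4 shared with the pregnane X receptor (NR1I2). PB activates CAR indirectly and CITCO binds human CAR, and neither drug was present in the 4 libraries compared.

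The targeted gene itself was read at 11.5 and 11.97 CPM in the WT libraries and 11.01 and 10.6 CPM in the KO libraries. The log2 difference was -0.12 (SE 0.087) and did not pass (limma adjusted p = 0.273); its sign turned with each column scaled to its total (0.14). Since the edited position is not given, this level does not check the genotype. Next to NR1I3 on chromosome 1, APOA2, an apolipoprotein of high-density lipoprotein, was at 64.4 and 68.03 CPM in WT and 173 and 168 CPM in KO libraries (1.36, adjusted p = 3.70e-14).

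Depth was 49258123 and 52101507 reads in the WT and 54917960 and 65329045 reads in the KO libraries, estimated from the step size of the values. The columns summed to 1098732 and 1092644 CPM in WT and to 918568 and 904693 CPM in KO libraries, so the deposited CPM values are scaled by more than the library total. Scaling each column to its total moved the median log2 difference of all loci from -0.003 to 0.247, a shift of 0.25, and this second scaling is given below wherever it matters. Duplicates differed by more than counting noise (chi-square per locus 8.28 between the WT and 9.74 between the KO libraries) and were kept as 2 libraries. Summed hepatocyte markers (6 of 7 in the table, transferrin not listed by its symbol) read 1.485e+05 and 1.442e+05 CPM in WT and 5.532e+04 and 5.354e+04 CPM in KO libraries. Of these 6, 4 were called lower and 1 higher, and ALB made up most of the sum. Summed biliary markers (4 of 6) read 404.9 and 457.2 against 121 and 120.3 CPM, a sum made up mostly of KRT19; 2 of them were called higher and 2 lower. Mesenchymal markers (4 of 5) stood at 88.1 and 86.9 against 165.1 and 158.2 CPM, where 1 (DCN) was called higher and 1 (COL3A1) lower. Of 5 leukocyte markers, CD14 was in the table (3.70 and 4.30 against 7.23 and 6.14 CPM) and PTPRC, CD68, CD163 and CD3E were not, nor was either erythroid marker; a longer leukocyte list added CD3D (2.97 and 2.71 against 4.57 and 3.199 CPM, uncalled). In bulk RNA, fewer cells of a type and less RNA per cell cannot be told apart, and the part of these markers in the results below was not tested.

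The 2 genotypes differed at 9106 of the 15792 loci (57.7%) by limma at an adjusted p under 0.05. KO cells had 4462 loci higher (28.3%) and 4644 lower (29.4%); with columns scaled to their totals 10603 loci were called (67.1%), 8291 higher (52.5%) and 2312 lower (14.6%). The 4462 higher loci were called higher under both scalings. Of the 4644 lower loci, 2312 were called lower under both, 2200 were uncalled with total scaling and 132 turned to higher. At least 2-fold changes were called at 1533 loci (9.71%), 859 higher (5.44%) and 674 lower (4.27%), against 1289 (8.16%) and 402 (2.55%) with total scaling. With 0.5 added to each CPM value, so that folds of low genes come out too small, 217 loci rose and 80 fell by a difference that stands for at least 4-fold, 71 rose and 6 fell at least 8-fold, and 22 rose and 0 fell at least 16-fold. The values of the 2 groups did not overlap at 12039 loci (76.2%). The shares over all loci, 28.3% higher and 29.4% lower as deposited and 52.5% and 14.6% with total scaling, are the background of every list count below. Below, "rose" and "fell" mean called at this adjusted p, KO against WT, and differences are log2(CPM + 0.5) unless another unit is named.

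**Figure D1:**
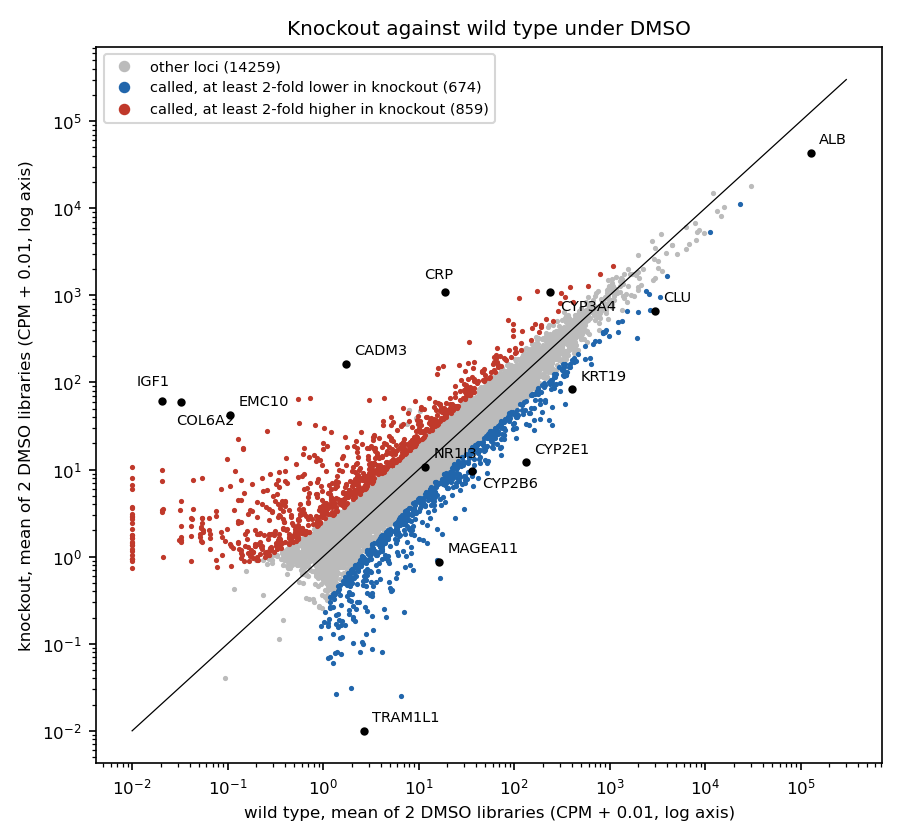
Mean CPM of the 2 KO libraries with DMSO (vertical, log axis) against that of the 2 WT libraries with DMSO (horizontal, log axis), 1 point per locus, with 0.01 CPM added so that loci at 0 can be drawn. Red points are the 859 loci called at least 2-fold higher and blue points the 674 called at least 2-fold lower; the line marks equal values, and IGF1, COL6A2 and EMC10 lie at the far left.

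The same genotype difference could be read between the libraries with PB and between those with CITCO. Their levels do not enter the DMSO difference, but they are of the same lines, counted in the filter and share its estimate of the spread; with the 4 DMSO libraries alone 8373 loci were called. Of the 9106 calls, 7778 (85.4%) were called in the same direction between KO and WT cells with PB and 7534 (82.7%) with CITCO, where 58.3% and 59% of all loci were called. The opposite direction was called at 13 loci with PB and 23 with CITCO. Of the 1533 calls of at least 2-fold, 1505 (98.2%) repeated with PB, 1506 (98.2%) with CITCO and 1495 with both. The 8 that turned around with CITCO all carried the symbol RNA5-8S5, copies of 5.8S ribosomal RNA whose reads the counting could split among them. A test of the difference between the comparisons called 159 loci (1.01%) for PB and 53 (0.336%) for CITCO. With the deposited scaling, of the genes named below that passed, ABCB1, ALAS1, CYP3A7 and G6PC took the opposite sign with PB and CYP1A1, CYP2A6 and NR1H2 with CITCO. The others kept their sign with both drugs.

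Several of the largest rises were of genes at or near 0 in WT cells. Insulin-like growth factor 1 (IGF1), a hormone that the liver secretes under control of growth hormone, was read at 0 and 0.0210 CPM in the WT and 61.6 and 61.3 CPM in the KO libraries, which is 1 read against 8111. With reads scaled as in the deposited CPM values, their ratio was 5685 (exact 95% interval 1020 to 2.246e+05). This interval covers counting error only, and the ratios and floors below use the same scaling. COL6A2, a chain of the microfibrillar collagen VI, stood at 0.0446 and 0 CPM in WT and 57.9 and 62.1 CPM in KO libraries (2 reads against 7946, ratio 2785, interval 771 to 2.3e+04). No KO library of the 6 in the series had less than 59.3 CPM of IGF1 or 57.9 CPM of COL6A2, and no WT library had more than 0.0331 and 0.116 CPM.

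In all, 10 loci were under 0.1 CPM in both WT libraries and at 5 CPM or more in both KO libraries, and 61 were under 0.1 CPM in WT and at 1 CPM or more in KO libraries. Of the 61, 33 were also under 0.1 CPM in all 6 WT and at 1 CPM or more in all 6 KO libraries of the series. The reverse pattern, near 0 in KO libraries, was met by 0 loci at 5 CPM and by 5 at 1 CPM, led by TRAM1L1 (2.64 CPM in WT libraries, 0 reads in KO libraries, at least 117-fold lower against a floor of 3 reads over the group). Beside IGF1 and COL6A2, the 10 loci included PNLIPRP3, of the pancreatic lipase family (0 against 1408 reads, at least 329-fold higher), the phosphatase PPAPDC1A (1 against 1292 reads, ratio 906, interval 162 to 35790), the glutamate receptor subunit GRIA1 (4 against 1051 reads, ratio 184, interval 71.7 to 677), NXF3, of a family of RNA export factors (0 against 1054, at least 246-fold), the receptor phosphatase PTPRD (3 against 1003, ratio 234, interval 79.95 to 1138), DCAF8L2 (1 against 982, ratio 688, interval 123 to 27210) and the transcript CTD-2545M3.2 (0 against 872, at least 204-fold). Of the 61 loci, 56 could be placed on the genome, and 7 of these lie on the X chromosome (12.5%, against 3.84% of all placed loci). The 61 were chosen by the compared values, and the 7 hold the related pairs MAGEA9 with MAGEA9B and DCAF8L1 with DCAF8L2. All placed loci are thus not a matched background for this share.

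**Figure D2:**
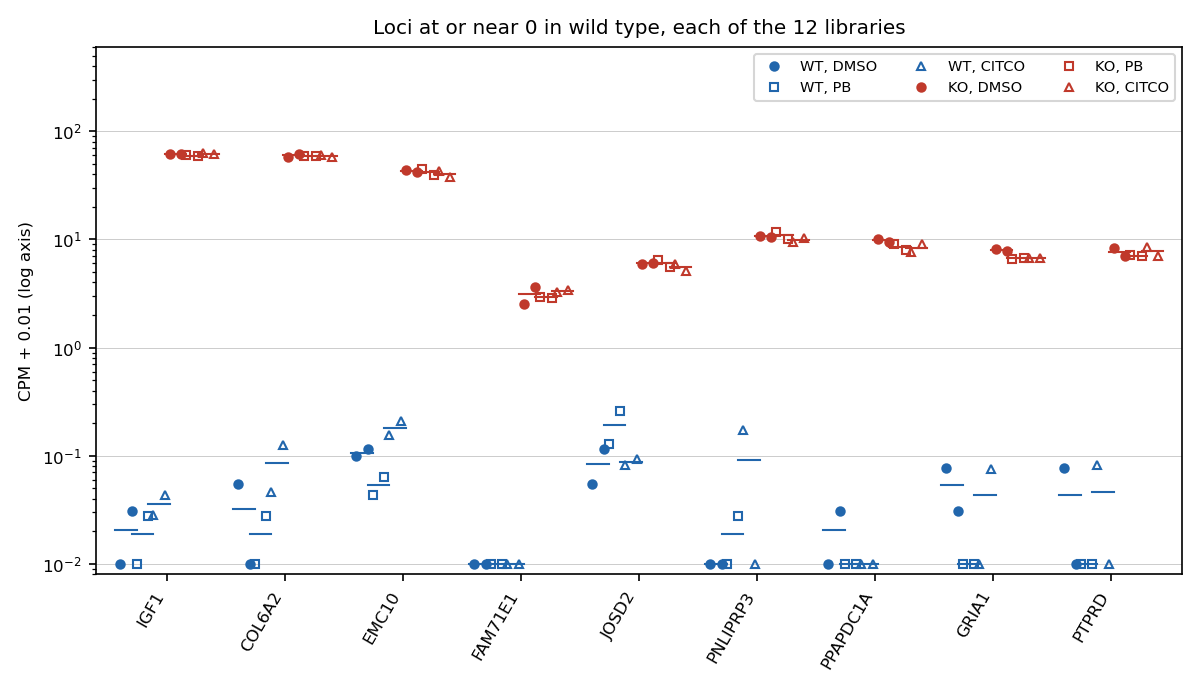
CPM (log axis, with 0.01 added) of 9 genes that were at or near 0 in WT cells, in each of the 12 libraries; blue marks WT and red KO libraries, circles DMSO, squares PB and triangles CITCO, and short lines group means. For each of the 9 genes every KO library lies above every WT library, with IGF1 near 61 CPM in KO cells.

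Several of the large rises lay side by side. On chromosome 19 a run of 5 neighbouring loci rose at least 2-fold: FAM71E1, EMC10, JOSD2, ASPDH and SYT3. EMC10, a subunit of the complex that inserts membrane proteins into the endoplasmic reticulum, went from 0.0892 and 0.105 to 43.3 and 42.2 CPM (6.18, SE 0.12, adjusted p = 1.51e-17), and ASPDH from 0.402 and 0.399 to 13.4 and 13.4 CPM (3.95). FAM71E1 had 0 reads in all 6 WT libraries and 414 in the 2 KO libraries with DMSO. Its annotated span overlaps that of EMC10 only between positions 50476400 and 50476753. Without strand, reads in that overlap cannot be told apart. NR1H2, upstream of this run, differed by 0.23.

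Another run, on chromosome 1, held 8 loci and ended with CRP. C-reactive protein (CRP), the acute phase pentraxin of hepatocytes, rose from 19.6 and 18.2 to 1118 and 1094 CPM, 58.4-fold by the group means (5.83, SE 0.043, adjusted p = 1.16e-23). The adhesion molecule CADM3 rose from 1.49 and 1.97 to 167 and 161 CPM (6.21), together with its antisense transcript CADM3-AS1 (5.97). Their annotated spans overlap in part, and reads in the overlap cannot be separated without strand. APCS, the pentraxin serum amyloid P, had 67.3 and 62.2 CPM in WT and 195 and 199 CPM in KO libraries (1.60). Beyond CRP the differences became smaller (DUSP23 0.85, TAGLN2 0.76) and then turned negative (LINC01133 -1.52). Of all placed loci at least 2-fold higher, 28.3% had a neighbour that was at least 2-fold higher too, against 10.5% of all placed loci. For the lower loci the shares were 27.6% and 8.13%. Both the shares and the runs count antisense transcripts and near copies that may share reads, such as ZNF32 with ZNF32-AS1 and SSX4 with SSX4B. In all, 12 runs of 3 or more rising and 14 of falling loci held 99 loci. A counterexample was COL6A2, whose neighbour COL6A1, another chain of the same collagen, was at 84.5 and 98.5 CPM in WT and 119.6 and 121 CPM in KO libraries (0.40).

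The bases before the start of 3 of these genes are shown because their CG content differs. COL6A2 was near 0 in WT cells, and CADM3 and CRP rose within the same run from higher levels. They come from RefSeq on GRCh38.p14 (COL6A2, chr21:46097862-46098096, plus strand; CADM3, chr1:159171365-159171608, plus strand; CRP, chr1:159714590-159714839, minus strand), are written in the direction of transcription and stop before the first annotated exon, and capitals mark the CG pairs.
COL6A2: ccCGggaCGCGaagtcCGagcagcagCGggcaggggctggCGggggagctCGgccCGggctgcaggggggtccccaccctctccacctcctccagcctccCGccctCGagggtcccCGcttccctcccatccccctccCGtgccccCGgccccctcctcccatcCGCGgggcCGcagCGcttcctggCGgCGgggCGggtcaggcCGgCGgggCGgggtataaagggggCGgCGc
CADM3: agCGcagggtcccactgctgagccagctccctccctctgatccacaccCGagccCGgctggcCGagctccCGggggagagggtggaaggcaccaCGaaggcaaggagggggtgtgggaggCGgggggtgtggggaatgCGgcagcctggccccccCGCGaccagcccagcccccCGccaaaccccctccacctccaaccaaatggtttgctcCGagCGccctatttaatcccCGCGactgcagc
CRP: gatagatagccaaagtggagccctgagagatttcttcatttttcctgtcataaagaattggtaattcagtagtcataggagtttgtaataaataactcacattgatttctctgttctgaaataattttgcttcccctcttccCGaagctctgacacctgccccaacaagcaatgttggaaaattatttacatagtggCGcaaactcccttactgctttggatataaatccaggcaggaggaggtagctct
In the 250 bases before the start, COL6A2 has 28 CG pairs, CADM3 16 and CRP 2. Over the 14597 promoter windows of tested loci, which belong to 9951 symbols, the median was 19, and 74.4% held at least 10. The 66 windows of the 41 loci near 0 in WT cells that matched by symbol had a median of 6.5 (range 0 to 42), and 37.9% held at least 10. These loci were chosen by the compared values and passed the filter through the KO libraries only, so the windows of all tested loci are not a matched background. A gene with several starts counts more than once. Windows of loci at least 2-fold higher had a median of 11, and so did those of loci at least 2-fold lower (54.5% and 52.8% with at least 10).

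Some germline genes of the X chromosome rose. Of 11 cancer-testis genes, which are normally read in germ cells, 6 rose and 1 fell (9 and 1 with total scaling, where 52.5% and 14.6% of all loci were called). SSX1 rose from 0.848 and 1.11 to 18.1 and 15.99 CPM, PAGE1 from 0.268 and 0.399 to 10.1 and 8.79 CPM and PAGE2 from 1.23 and 0.944 to 18.9 and 18.9 CPM. PAGE2B, nearly identical to PAGE2 and therefore uncertain, rose from 0.692 and 0.734 to 62.1 and 71.2 CPM (5.79). SSX4 and SSX4B share their reads in the same way and read 0.245 and 0.0210 CPM in WT against 19.1 and 16.1 CPM in KO libraries for SSX4. Not every member moved with them: GAGE1, the most abundant, was uncalled (0.11; called at 0.38 with total scaling), MAGEC2 fell by 1.14, and MAGEA11, outside the list, had the largest fall of the comparison on the log2(CPM + 0.5) scale, from 14.9 and 18.1 to 0.786 and 0.942 CPM (-3.63).

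Among the drug-metabolising cytochromes P450, CYP2B6 fell and CYP3A4 rose. CYP2B6, which oxidises efavirenz and bupropion, was at 35.2 and 37.1 CPM in WT and 10.2 and 8.95 CPM in KO libraries, 3.77-fold lower (-1.86, SE 0.058, adjusted p = 8.82e-15). CYP3A4, the main drug oxidase of human liver, was at 242 and 232 CPM in WT and 1080 and 1101 CPM in KO libraries, 4.61-fold higher (2.20, SE 0.035, adjusted p = 8.23e-19). The 2 genes thus moved in opposite directions without an inducer, and in neither did the groups overlap. Reads of CYP2B6 may be shared with its pseudogene, which was uncalled with either scaling (-0.16 as deposited and 0.09 with total scaling). The authors' deposited table gave log2 fold changes of -1.91 for CYP2B6 and 2.21 for CYP3A4.

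The 2 promoters are shown for the hexamers AGGTCA and AGTTCA, the short sites that CAR, NR1I2 and related receptors recognise, in capitals where they form a pair or stand alone (RefSeq, GRCh38.p14; CYP3A4, chr7:99784266-99784434, minus strand; CYP2B6, chr19:40991032-40991249, plus strand).
CYP3A4: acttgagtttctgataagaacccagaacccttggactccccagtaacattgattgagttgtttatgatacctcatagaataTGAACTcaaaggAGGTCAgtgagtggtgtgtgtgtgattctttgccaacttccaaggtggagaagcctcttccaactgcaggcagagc
CYP2B6: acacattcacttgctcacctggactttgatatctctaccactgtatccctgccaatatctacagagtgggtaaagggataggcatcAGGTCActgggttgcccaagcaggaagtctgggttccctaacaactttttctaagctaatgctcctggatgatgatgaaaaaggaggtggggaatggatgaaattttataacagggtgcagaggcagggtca
The CYP3A4 window holds 1 AGTTCA on the other strand, printed as TGAACT, 6 bases before an AGGTCA, an everted pair that was found in 2 of the 14597 windows (0.0137%). The CYP2B6 window holds 1 AGGTCA and no such pair; on either strand, 9.42% of all windows held AGGTCA and 6.47% held AGTTCA. A match describes these letters only and is not a measured binding site.

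Of the 16 genes of the P450 list, with the electron donor POR and the heme enzyme ALAS1, 6 rose and 7 fell (7 and 5 with total scaling), which is 37.5% and 43.8% as deposited. CYP2E1, which oxidises ethanol, had the largest fall of the list, from 133 and 132 to 13.2 and 11.04 CPM (-3.40, SE 0.074). CYP2C8, which oxidises paclitaxel, fell from 137 and 128 to 32.1 and 33.7 CPM (-1.99), and CYP3A5 from 329 and 319.6 to 174 and 172 CPM (-0.90). The groups did not overlap for any of these 3 genes. On the other side, the nicotine oxidase CYP2A6 rose from 59.1 and 61.8 to 113 and 108 CPM (0.86) and its close relative CYP2A13, with which it may share reads, fell from 2.92 and 2.39 to 1.24 and 1.26 CPM (-0.85). CYP2D6, whose reads may be shared with its pseudogenes, rose from 0.535 and 0.797 to 6.76 and 5.42 CPM (2.50). POR was uncalled (0.05, adjusted p = 0.361; called at 0.32 with total scaling), while CYP3A7 (-0.39) and ALAS1 (-0.27) fell only with the deposited scaling.

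For CYP2B6 and CYP3A4 the genotype difference itself changed with the drugs: CYP2B6 differed by -0.96 with PB and -4.64 with CITCO, CYP3A4 by 1.44 and 1.65. CYP2A6 turned to -0.29 with CITCO as deposited. Of 5 AhR targets, genes of the aryl hydrocarbon receptor, 4 fell and 1 rose (2 and 1 with total scaling). CYP1A1 fell from 1.58 and 0.944 to 0.268 and 0.540 CPM and CYP1A2 from 0.781 and 1.41 to 0.468 and 0.152 CPM, while the quinone reductase NQO1, also an NRF2 target, rose from 0.112 and 0.524 to 4.8 and 5.54 CPM (2.84). The other 2 falls were lost with total scaling, and the call of CYP1A2 rested on the second KO library (adjusted p = 0.0609 without it).

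**Figure D3:**
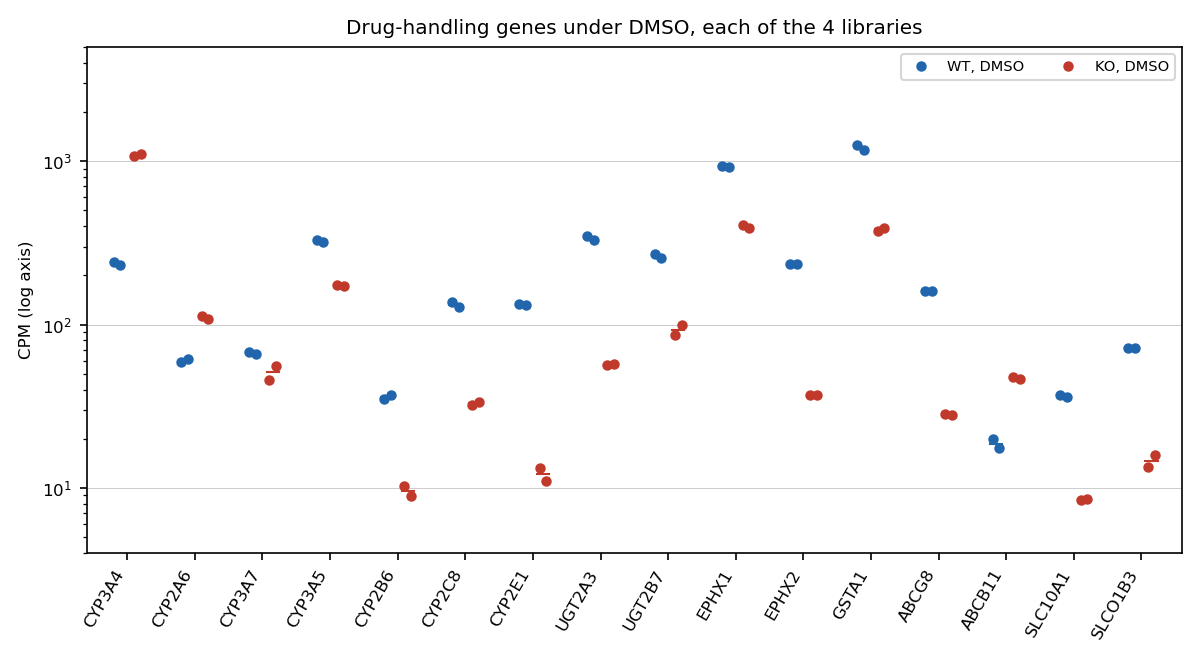
CPM (log axis) of 16 drug-handling genes in each of the 4 libraries with DMSO, blue for WT and red for KO; short lines are group means of 2. CYP3A4, CYP2A6 and ABCB11 were higher in KO libraries and the other 13 genes lower, with no overlap between the groups for any of the 16.

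In the lists of conjugating enzymes and carriers most members fell. Of 9 genes of glucuronidation, 8 fell and 1 rose (6 and 1 with total scaling), and their median stood -0.96 from that of all loci. UGT2A3 fell from 349.6 and 327 to 56.5 and 57.4 CPM (-2.56) and UGT2B7, which conjugates morphine, from 271 and 254 to 86.4 and 100 CPM (-1.49). UGT2B17, UGT2B10, UGT2A3 and UGT2B7 are neighbours on chromosome 4 that fell at least 2-fold together; the UGT2B genes are similar enough that reads may be split among them. UGT2B11 alone rose (0.63), and UGT1A1, which conjugates bilirubin, fell by 0.30 only with the deposited scaling.

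Of 13 sulfotransferases, glutathione transferases and epoxide hydrolases, 10 fell and 1 rose (6 and 3 with total scaling). Microsomal epoxide hydrolase EPHX1 fell from 930.2 and 922 to 409 and 388 CPM (-1.22), and GSTA1 from 1255 and 1169 to 376 and 392.1 CPM (-1.66). Soluble epoxide hydrolase EPHX2 fell furthest, from 234 and 234 to 36.98 and 36.8 CPM (-2.65); it lies on the short arm of chromosome 8, whose genes were lower as a group (given at the end). GSTA5, a near copy of GSTA1, read 29.4 and 4.299 CPM in WT and 0.351 and 0.762 CPM in KO libraries. Its WT duplicates lay far apart, and the difference of -3.53 ran from -2.21 to -4.85 when either was left out.

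Of 14 exporters 11 fell and 2 rose, and of 12 uptake carriers 11 fell and 1 rose (8 and 1 with total scaling). The sterol exporters ABCG8 and ABCG5, which work as a pair, fell from 160.5 and 160.4 to 28.3 and 28 CPM (-2.49) and from 31.2 and 33.1 to 7.78 and 7.81 CPM (-1.98). NTCP (SLC10A1), the sodium-driven bile acid carrier, fell from 37.1 and 35.9 to 8.48 and 8.56 CPM (-2.04), and the organic anion carrier SLCO1B3 from 72.1 and 71.8 to 13.4 and 15.8 CPM (-2.27). The drug exporters ABCB1 (-0.59) and ABCC2 (-0.66) fell by less. Against this direction, the bile salt export pump ABCB11 rose from 19.8 and 17.4 to 47.7 and 46.6 CPM (1.32). SLC51A rose from 4.59 and 5.75 to 23.9 and 20 CPM (1.99), while SLC51B, its partner in the same steroid exporter, fell from 1.16 and 0.692 to 0.117 and 0.0969 CPM (-1.21).

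Plasma proteins fell more often than they rose. Of 20 plasma proteins 14 fell and 4 rose (12 and 8 with total scaling; median -0.63 from all loci). Albumin (ALB) fell from 129900 and 125200 to 44230 and 42810 CPM (-1.55, SE 0.034, adjusted p = 7.11e-17), which is from 11.8% and 11.5% of the column totals to 4.82% and 4.73%. ALB, AFP and AFM are neighbours on chromosome 4 and all fell at least 2-fold, AFP by 1.95. SERPINA7, which carries thyroxine, fell from 255 and 244 to 31.9 and 32.2 CPM (-2.94), while its relative SERPINA1 fell by 0.81 and transthyretin (TTR) was uncalled (0.03; called at 0.29 with total scaling). ITIH1 (1.08), APCS and A1BG (1.70) were the members that rose at least 2-fold.

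Coagulation factors split nearly evenly as deposited, 9 of 20 higher and 8 lower (12 and 8 with total scaling). Factor IX (F9) rose from 10.8 and 10.3 to 48.5 and 49.5 CPM (2.16), and all 3 fibrinogen chains rose (FGA 0.55, FGB 0.23, FGG 0.61). CPB2, which slows fibrinolysis, fell from 657 and 632 to 157.5 and 169 CPM (-1.98), and heparin cofactor SERPIND1 by 1.77. Coagulation factor XIII A (F13A1), outside the list and known from platelets and macrophages, rose from 0.647 and 0.440 to 34.05 and 33.7 CPM (5.05). CEACAM20, an adhesion molecule that was among the 10 largest rises too, went from 0.112 and 0.126 to 24.9 and 20.3 CPM (5.21). In the complement list 6 of 18 rose and 9 fell (9 and 6 with total scaling), with C9 at 102 and 94.2 against 396 and 397 CPM (2.01) and C6 at 878 and 844 against 372 and 365 CPM (-1.22).

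Among acute phase genes 10 of 15 rose and 2 fell (median 0.40 from all loci). CRP led them, and ceruloplasmin (CP) rose from 353 and 329 to 937 and 959 CPM (1.48). STAT3, which carries the interleukin-6 signal to these genes, rose from 231 and 234 to 468 and 456 CPM (0.99), and haptoglobin (HP) by 0.32. SAA1, one of the most inducible members, was uncalled (-0.05, adjusted p = 0.131) but rose by 0.21 with total scaling, and ORM1 and ORM2, near copies whose reads may be split, fell by 0.61 and 0.66. The rise was thus not shared by the whole list.

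Of 16 apolipoproteins and assembly factors 5 rose and 8 fell (7 and 5 with total scaling). APOA1, the main protein of high-density lipoprotein, fell from 3188 and 3506 to 932 and 1004 CPM (-1.79). APOA4 and APOA5, which lie in the same gene cluster, rose from 3.55 and 5.201 to 66.6 and 65.3 CPM (3.79) and from 10.1 and 11.7 to 26.4 and 27.4 CPM (1.27). APOB, the core of very low-density lipoprotein, fell by 0.91, and MTTP, which loads it with lipid, by 1.15.

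**Figure D4:**
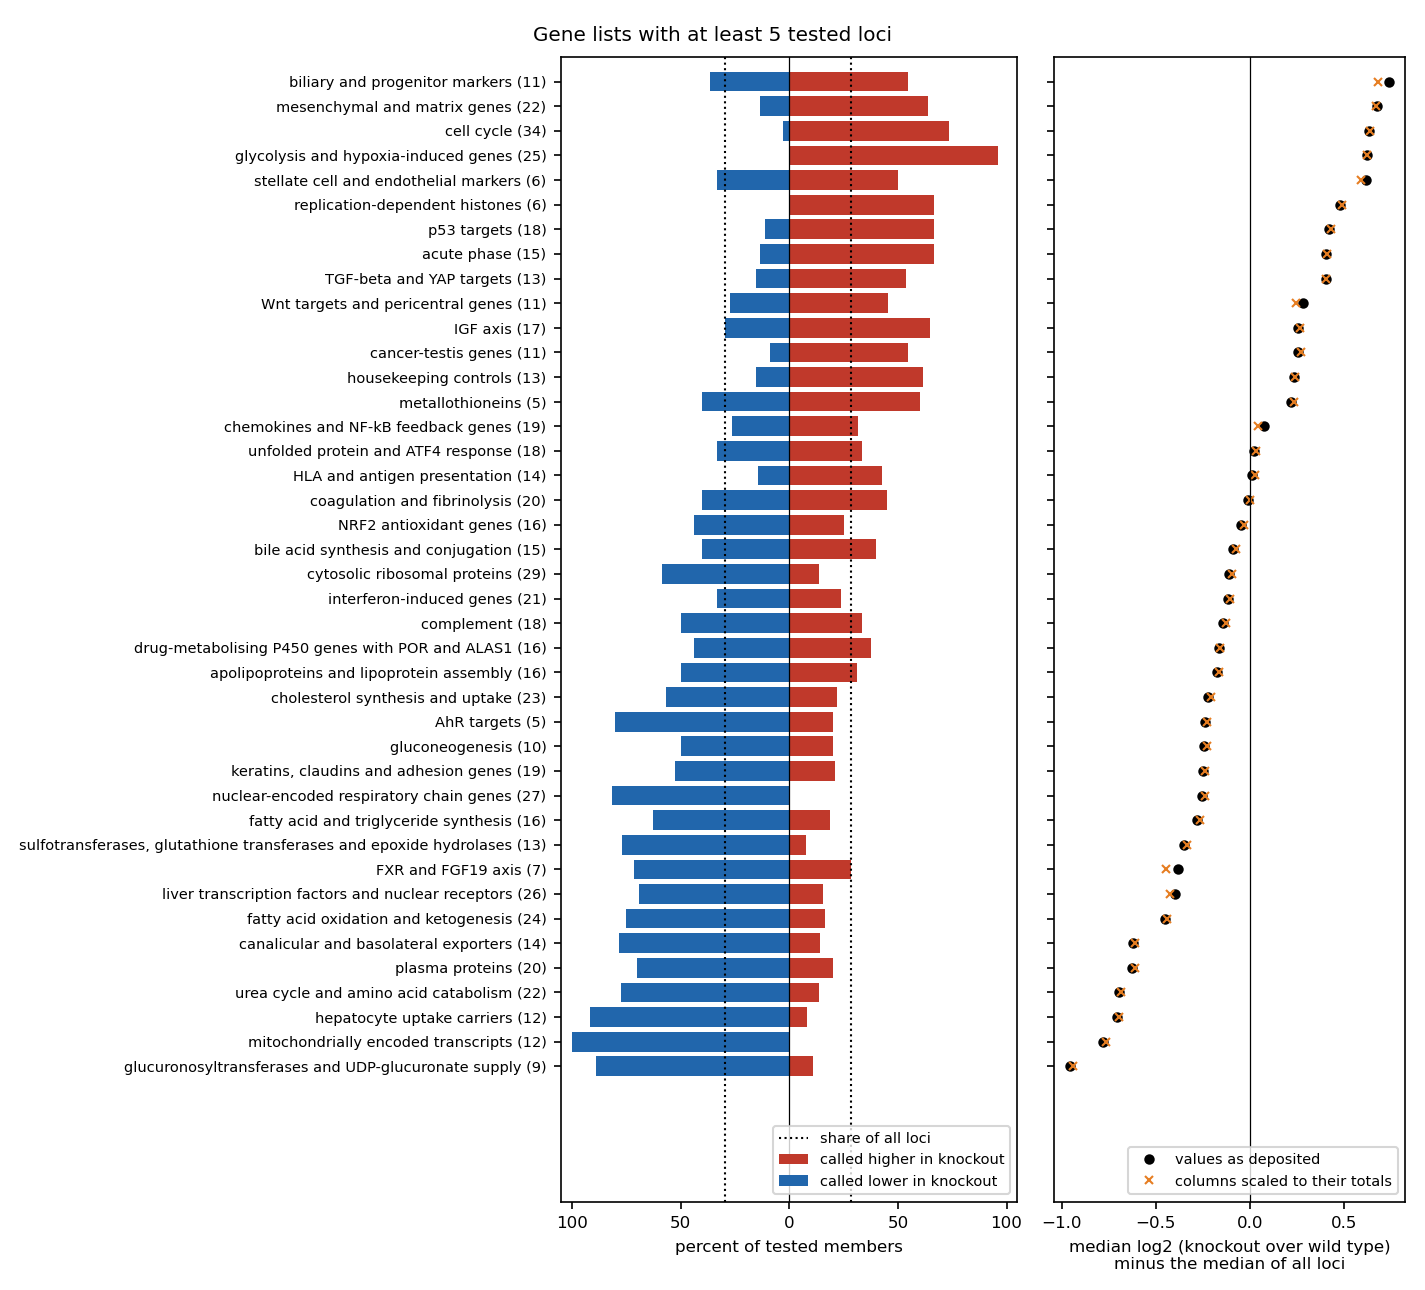
Left, percent of the tested members of each gene list called higher (red, to the right) or lower (blue, to the left) in KO cells with DMSO, with the number tested in brackets and dotted lines at the shares over all loci, 28.3% and 29.4%. Right, the median log2 difference of each list minus that of all loci, as deposited (circles) and with columns scaled to their totals (crosses); glycolysis and cell cycle genes lie to the right of 0 and conjugation, carrier and mitochondrial lists to the left.

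Lists of liver metabolism held more genes that fell than rose with the deposited scaling, apart from bile acid synthesis. Of 22 loci of the urea cycle and amino acid breakdown 17 fell and 3 rose (median -0.70 from all loci). CPS1, which commits ammonia to urea, fell from 997 and 929 to 542 and 538 CPM (-0.83), but arginase ARG1, the last step, rose from 41.3 and 39.4 to 96.6 and 101 CPM (1.28). GLDC of glycine cleavage fell from 186 and 188 to 57.6 and 56.6 CPM (-1.70), and HGD and FAH of tyrosine breakdown by 1.31 and 1.14. Of 10 gluconeogenic genes 5 fell and 2 rose (5 and 5 with total scaling): PCK1, the committing step, fell from 49.3 and 46.8 to 15.9 and 16.4 CPM (-1.54), whereas G6PC, which releases glucose, rose by 0.35.

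Fatty acid oxidation had 18 of 24 genes lower and 4 higher (14 and 7 with total scaling). The short-chain dehydrogenase ACADS fell from 10.9 and 11.4 to 1.64 and 1.44 CPM (-2.52) and PDK4, a switch from glucose to fat, from 107 and 103 to 29.5 and 30.4 CPM (-1.79). The lipid droplet protein PLIN2 rose from 223 and 212 to 548 and 521 CPM (1.29), and ANGPTL4, which blocks lipoprotein lipase, by 1.00. Of 16 genes of fatty acid and triglyceride synthesis 10 fell and 3 rose (6 and 6 with total scaling). The enzymes of the last step of triglyceride synthesis fell, DGAT2 from 299 and 311 to 81.2 and 78.5 CPM (-1.93) and DGAT1 by 1.37, while FASN and ACLY, which make the fatty acid chain and its precursor, rose by 0.38 and 0.55. In the cholesterol list 13 of 23 fell and 5 rose, but 11 rose and 5 fell with total scaling; the regulator SREBF2 rose from 82.8 and 85.6 to 159 and 157.5 CPM (0.91).

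Bile acid synthesis split 6 up and 6 down of 15 (8 and 6 with total scaling). CYP7A1, its rate-limiting enzyme, fell from 78.5 and 68.8 to 30.4 and 29.7 CPM (-1.28), and CYP8B1, which sets the share of cholic acid, rose from 44.2 and 47.3 to 135 and 128 CPM (1.51). KLB and FGFR4, the receptor pair for the gut hormone FGF19, fell by 1.37 and 1.00; the bile acid receptor NR1H4 fell by 0.32 with the deposited scaling only.

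Of 26 liver transcription factors and nuclear receptors 18 fell and 4 rose (12 and 7 with total scaling). HNF4A, a master regulator of hepatocyte genes, fell from 319 and 307 to 177 and 166 CPM (-0.87), CEBPA from 35.98 and 44.6 to 16.5 and 20.1 CPM (-1.11) and FOXA3 from 6.201 and 6.63 to 1.49 and 2.05 CPM (-1.62). FOXA1 fell by 1.24 and its relative FOXA2 rose by 0.57. GATA4 fell by 1.71 and lies on the short arm of chromosome 8. RXRA, the partner of CAR, fell by 0.50; the pregnane X receptor NR1I2 differed by -0.26, a call lost with total scaling.

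All 12 mitochondrially encoded loci fell, and 11 of them also with total scaling (MT-ND1 did not). MT-CO1 went from 30440 and 30200 to 18320 and 17300 CPM (-0.77) and MT-RNR2 from 23090 and 23160 to 11250 and 11390 CPM (-1.03), and mitochondrial loci took 10.86% and 11.01% of the WT against 7.95% and 7.56% of the KO column totals. Nuclear genes of the respiratory chain fell in 22 of 27 and rose in 0, but in 7 and 5 with total scaling. Ribosomal protein genes turned with the scaling, from 4 higher and 17 lower of 29 to 22 and 3.

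Glycolysis and hypoxia-induced genes rose in 24 of 25, with 0 that fell (25 rose with total scaling; median 0.62 from all loci). ENO2, the neuronal enolase, went from 0.625 and 0.608 to 17.8 and 17.4 CPM (4.02, SE 0.14), while ENO1, the form of most tissues, rose from 2009 and 1971 to 3036 and 2795 CPM (0.55). PFKFB4, which sets the pace of glycolysis, rose from 6.47 and 6.65 to 32.8 and 31.1 CPM (2.20) and the glucose carrier SLC2A1 from 47.5 and 46.3 to 105.1 and 108 CPM (1.18), whereas SLC2A2, the hepatocyte carrier, fell by 0.91. The hypoxia-induced NDRG1 rose from 382 and 395 to 1278 and 1237 CPM (1.70) and EGLN3, which marks the hypoxia factor for breakdown, by 1.42. Classical members of the response moved by much less, CA9 by 0.14 and VEGFA by 0.17, and lost their call without the first KO library (CA9, adjusted p = 0.116) or the second (VEGFA, adjusted p = 0.0712).

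Cell cycle genes rose in 25 of 34 (32 with total scaling), and MCM5 alone fell (-0.41, uncalled with total scaling). MKI67, the proliferation marker, rose from 50.01 and 46.5 to 146 and 139 CPM (1.55), CCNB1 of the entry into mitosis from 14.2 and 16.1 to 39.99 and 34.98 CPM (1.28) and TOP2A from 68.2 and 65.98 to 149 and 154 CPM (1.17). Targets of p53 rose in 12 of 18 and fell in 2, GDF15 from 4.51 and 5.81 to 21.3 and 24.2 CPM (2.05), MDM2 by 0.55 and CDKN1A, which halts the cycle, by 0.42. TNFRSF10B, a death receptor on the short arm of chromosome 8, fell by 0.65.

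Matrix and mesenchymal genes rose in 14 of 22 and fell in 3 (19 and 1 with total scaling; median 0.67 from all loci). Beside COL6A2, COL6A3 of the same collagen rose from 0.513 and 0.713 to 8.08 and 9.73 CPM (3.08), the actin-binding TAGLN from 4.01 and 4.45 to 37.7 and 35.2 CPM (2.97) and decorin (DCN) from 28.7 and 26.3 to 111 and 104 CPM (1.95). Fibrillar collagens moved little: COL1A1 was uncalled (0.26) and COL3A1 fell by 0.41, but COL1A1 rose by 0.51 and COL3A1 was uncalled with total scaling. Fibronectin (FN1) fell by 0.20 as deposited and turned to 0.07 with total scaling. N-cadherin (CDH2), often taken as a mesenchymal marker, fell from 121 and 119 to 55.4 and 55.7 CPM (-1.10).

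Among targets of TGF-beta and YAP 7 of 13 rose and 2 fell (10 and 0 with total scaling). CYR61, a secreted matrix-associated protein, and ANKRD1 rose by 1.54 and 1.41, but CTGF, from the same family as CYR61, fell by 0.30 with the deposited scaling only. Rises outside the lists, named after their values were seen, were those of the filamin FLNA (90.6 and 106 against 479 and 457 CPM, 2.25), the laminin receptor chain ITGA3 (1.79), the receptor ligand GAS6 (2.62) and CHI3L1, a secreted chitinase-like protein (108 and 116 against 949.8 and 927 CPM, 3.06). ACTB, often used as a reference gene, rose from 1062 and 1116 to 2205 and 2177 CPM (1.01).

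In the list of 19 keratins, claudins and adhesion genes 4 rose and 10 fell (8 and 7 with total scaling), with a median -0.25 from all loci. Keratins moved in both directions. KRT19, of bile ducts and progenitors, fell from 383 and 432 to 83.9 and 83.98 CPM (-2.27), and KRT15, next to it on chromosome 17, by 1.24. On the other side of that cluster KRT17 rose from 0.156 and 0.0210 to 13.1 and 13.1 CPM (4.54) and KRT16 from 0.781 and 0.923 to 14.02 and 13.1 CPM (3.38), both keratins of stressed epidermis. KRT6A, their partner on chromosome 12, rose from 16.7 and 15.2 to 150.4 and 141 CPM (3.16) within a run of 4 neighbours that also held KRT6B, KRT6C and KRT5. The hepatocyte keratin KRT8 was uncalled (0.02; called at 0.28 with total scaling). Biliary and progenitor markers split as well: 6 of 11 rose, among them the mucin MUC13 (2.00), osteopontin SPP1 (1.27) and the integrin chain ITGB4 (1.94 and 2.43 against 20.3 and 22.6 CPM, 3.04), and 4 fell, among them SOX9 (-0.92). The call of KRT7 rested on the first KO library (adjusted p = 0.0619 without it).

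Of the genes of the IGF axis, IGF1 included, 11 of 17 rose and 5 fell. The binding proteins IGFBP3 (33.8 and 32.6 against 161 and 175 CPM, 2.32) and IGFBP1 (14.4 and 15.8 against 43.7 and 52 CPM, 1.62) rose, and IGFBP2 fell by 0.54. GHR, the growth hormone receptor, fell from 96.2 and 86.97 to 42.9 and 47.4 CPM (-1.01), the opposite direction to IGF1, and the receptor IGF1R rose by 0.34. Of the Wnt list 5 of 11 rose and 3 fell, with the Wnt inhibitor DKK1 at 24.5 and 23.3 against 71.99 and 80.3 CPM (1.65) and glutamine synthetase GLUL at -0.69. RELN, a secreted protein read in stellate cells of the liver, rose from 0.446 and 1.17 to 32.8 and 32.5 CPM (4.72). Of 6 stellate cell and endothelial markers 3 rose and 2 fell (3 and 0 with total scaling). Summed endothelial and stellate markers (4 of 6 in the table, RELN included) read 118 and 108.7 CPM in WT and 124.8 and 130 CPM in KO libraries, with 2 called higher and 1 lower.

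Stress and immune lists had members in both directions. Of 16 NRF2 targets 4 rose and 7 fell (9 and 4 with total scaling): the glutathione peroxidase GPX2 rose from 7.36 and 7.95 to 45.2 and 43.98 CPM (2.47), and the aldo-keto reductases AKR1B10 and AKR1C2 fell by 1.59 and 1.18. In the unfolded protein list 6 of 18 rose and 6 fell (33.3% each as deposited, 11 and 3 with total scaling). XBP1, a transcription factor of that response, fell from 271 and 273 to 92.7 and 98.5 CPM (-1.50). PPP1R15A, which ends the translation block, rose by 1.08. Of 21 interferon-induced genes 5 rose, OAS2 by 1.12, and 7 fell, USP18 by 1.51 (10 and 5 with total scaling); as deposited that is 23.8% and 33.3%, near the 28.3% and 29.4% of all loci. Of 19 chemokines and NF-kB feedback genes 6 rose and 5 fell (11 and 4 with total scaling). As deposited that is 31.6% and 26.3%, also near the shares of all loci. The chemokines CXCL10 (6.402 and 5.56 against 0.970 and 1.25 CPM, -2.01) and CCL2 (-1.31) fell, and BIRC3 rose by 1.08. Of 14 HLA and antigen-presenting genes 6 rose and 2 fell (11 and 1 with total scaling). In class II, HLA-DPA1 rose from 1.34 and 1.78 to 12.8 and 14.1 CPM (2.77) while HLA-DRA fell by 0.63.

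Besides MAGEA11, CYP2E1, GSTA5 and SERPINA7, the 10 largest falls on the log2(CPM + 0.5) scale among loci with a group mean of at least 5 CPM held STC1, a secreted calcium regulator (16.8 and 14.3 against 0.652 and 1.16 CPM, -3.53), and NUGGC (31.2 and 28.9 against 4.15 and 2.85 CPM, -2.95), both on the short arm of chromosome 8. KAL1, a secreted guidance protein, fell from 7.38 and 6.71 to 0.184 and 0.263 CPM (-3.38), NELL2 from 18.3 and 16.97 to 1.89 and 1.73 CPM and the phospholipase PLA2G2A from 23.5 and 24.8 to 3.35 and 2.23 CPM. TNXA, a partial copy of a neighbouring gene whose reads may be shared, fell by 2.96. None of these groups overlapped. Of the abundant secreted proteins outside the lists, named after their values were seen, A2M, a protease inhibitor of plasma, fell from 2675 and 2607 to 693 and 677 CPM (-1.95), and the chaperone clusterin (CLU), again on the short arm of chromosome 8, from 2972 and 2988 to 694 and 638 CPM (-2.16).

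The differences were also unevenly spread along the chromosomes. In the first 40 Mb of chromosome 8, 121 of 140 loci fell and 9 rose, and their median stood -0.89 from that of all loci, a ratio of 0.541. The median difference there was -0.92 with PB and -0.88 with CITCO, measured in other libraries of the same lines. From 50 to 150 Mb of the same chromosome the median of 306 loci was 0.06 from that of all loci. The short-arm block held 56 of the 587 placed loci that fell at least 2-fold (9.54%, against 1.02% of all placed loci), with 5 runs of neighbours such as DPYSL2, ADRA1A, TRIM35, PTK2B, EPHX2 and CLU; without it, 618 loci fell at least 2-fold.

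Smaller shifts of the same kind covered other arms. On chromosome 10, 90 of 130 loci between 0 and 40 Mb fell (median -0.40 from all loci) and 219 of 362 between 60 and 140 Mb rose (0.32). On chromosome 12, 351 of 531 loci from 40 to 140 Mb rose (0.37), and 201 of 259 from 90 to 140 Mb (0.50, a ratio of 1.42), a stretch that holds IGF1, while the first 30 Mb stood at -0.01. Chromosome 13 from 40 to 120 Mb (-0.30, 178 loci), chromosome 15 from 20 to 90 Mb (-0.23, 412 loci) and chromosome 22 from 10 to 40 Mb (-0.29, 226 loci) were lower, and chromosome 22 from 40 to 60 Mb was higher (0.36, 93 loci). Among 259 windows of 10 Mb with at least 20 loci, 17 stood more than 0.25 above and 18 more than 0.25 below the median of all loci, and the middle of the distribution lay between -0.10 and 0.08. With columns scaled to their totals, the median of each of these blocks relative to all loci kept its sign.

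**Figure D5:**
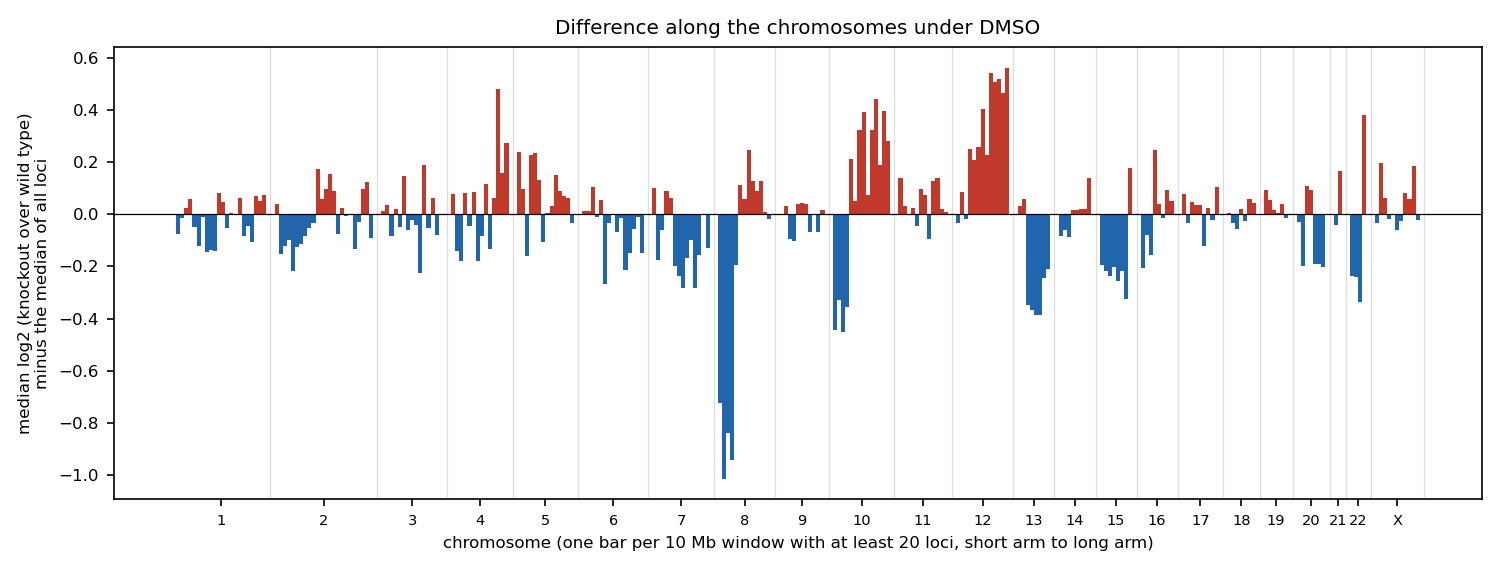
Median log2 difference of the loci in each 10 Mb window, minus the median of all loci, for KO against WT with DMSO, along chromosomes 1 to 22 and X; only windows with at least 20 loci are drawn, red above and blue below 0. The first 4 windows of chromosome 8 reach down to -1.01, and the last windows of chromosome 12 up to 0.56.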

How the data were processed

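RNA-seq libraries of WT and hCAR-KO HepaRG cells were read from a deposited table of 12 columns. Per its name the values are CPM; the column totals differed, so they were treated as a normalized signal that the authors scaled in a way not given in the sources used here. The submitters' processing notes name edgeR 2.12, Cuffdiff 2.1.1, Cufflinks 2.1.1, TopHat2 2.0.10 and Bowtie 1.0.0, and the builds GRCh38 and GRCh37, without a role or order. The authors' deposited table of this comparison holds log2 fold changes, a test score (a likelihood ratio) and p-values; it listed 14161 loci, 8295 of them at an FDR under 0.05, of which 7832 were called here with the same sign and 0 with the opposite sign.

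Loci that reached 1 CPM in 2 or more columns were fitted as log2(CPM + 0.5) with limma 3.58.1 in R 4.3.3, with 6 group means over all 12 libraries and a prior variance that follows expression, and Benjamini-Hochberg adjustment over all 15792 loci. The fit was also run on simulated reads with known folds. Their spread was simpler than that of these data, so no call here rests on that run. Total scaling divides each column by its sum. Positions were taken from GENCODE release 29 (GRCh38) by symbol, which matched 13758 loci. Reads per library were estimated from the steps of the values, of which 100% were whole to within 0.01 reads; only 56 to 96 values in a KO column, against 178 to 273 in a WT column, were of 1 to 20 reads, the range that shows the step. These estimated reads gave the floors, exact intervals and the chi-square between duplicates; no count model was fitted across loci. The 4 libraries and 43 gene lists were chosen with earlier results of these data known. Named genes are CAR targets fixed by name, the 10 largest differences each way, loci near 0 in one genotype, the largest differences in CPM, and the largest and most abundant members of each list; others were named after their values were seen, and some genes that meet the rule are not reported here. Alternatives were total scaling, other pseudocounts, filters, prior variances and libraries in the fit, a replicate block, and leaving out each library.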

Additional observations from a re-analysis of the deposited data

Results flagged for a closer look

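For 5 drug-handling genes the deposited values gave a genotype difference with a drug of the opposite sign to that with DMSO. The difference between the 2 comparisons passed in the same limma fit (adjusted over all loci). With total scaling the DMSO differences of ALAS1 (-0.003) and CYP3A7 (-0.13) were uncalled, and those with the drugs are not given here on that scaling. The CYP2A6 difference with CITCO, below, is close in size to the 0.25 by which total scaling moved the median with DMSO. The KO minus WT log2 difference of ALAS1, the first enzyme of haem synthesis, went from -0.27 with DMSO to 0.34 with PB, a change of 0.61 (adjusted p = 0.000231). ABCB1 went from -0.59 to 0.18 with PB, a change of 0.78 (adjusted p = 1.90e-06), and CYP3A7 from -0.39 to 1.05, a change of 1.44 (adjusted p = 9.34e-07). With CITCO, CYP2A6 went from 0.86 to -0.29, a change of -1.16 (adjusted p = 9.49e-09). CYP1A1 went from -0.96 to 0.76 with CITCO, a change of 1.72 (adjusted p = 0.0153), at levels of 1.58 and 0.944 CPM in WT and 0.268 and 0.540 CPM in KO libraries with DMSO.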

How the results depend on the processing

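The number of called loci, 9106, lay between 7632 (at least 5 CPM in at least 2 columns) and 10603 (total scaling) over all alternatives. With total scaling, 8291 loci were higher and 2312 lower, 1289 up and 402 down by 2-fold or more; with at least 5 CPM required, 544 were at least 2-fold higher, where fewer loci were tested. Leaving out 1 of the 4 libraries gave 7888 to 8460 calls, 3871 to 4221 higher and 3992 to 4239 lower, with 841 to 917 and 679 to 693 at least 2-fold higher and lower; the lone library left was taken to vary like the other groups. A pseudocount of 0.1 gave 1023 and 817 loci at least 2-fold higher and lower, and 1 gave 680 and 531. With the replicate number as a block 9126 loci were called, 867 at least 2-fold higher and 674 lower. Samples of the same number did not deviate together in every pair of groups (correlation 0.23 between KO and WT with DMSO, and -0.08 to 0.29 over all pairs). The labels do not say whether the same number means a shared batch, and these correlations cannot decide it. No call of a gene named here changed under the block.

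For 207 genes named here, 2451 of 2476 values kept their direction and side of the threshold. With total scaling 9 calls were lost and 5 gained, and NR1I3 (0.14), SAA1 (0.21) and FN1 (0.070) changed sign, as did the coagulation list's median relative to all loci (0.00135). Leaving out KO library 1 ended the calls of CA9 (adjusted p = 0.116) and KRT7 (0.0619), and leaving out KO library 2 those of CYP1A2 (0.0609) and VEGFA (0.0712), while GAGE1 was then called (0.0366). CA9 was also uncalled without WT library 2 (0.0516) and with a constant prior variance (0.0596). KRT8, uncalled at 0.02, read -0.011 to 0.048 without 1 library. Total scaling shifts the median of all loci by 0.25. Chosen after seeing the data, leaving the first 40 Mb of chromosome 8 out of the count left 618 loci at least 2-fold lower, and total scaling of the repeat counts gave 9246 calls repeated with PB and 9080 with CITCO. With 2 libraries a group, the spread of a gene rests mainly on the estimate shared by all loci.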
